A study of Homo sapiens with 6 samples.

Results

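The major histone gene cluster of chromosome 6 was taken here as every nascent-strand peak on chromosome 6 that starts between 25700 and 28300 kb of T2T-CHM13, a stretch of 2.6 Mb. It held 623 of the 945863 peaks deposited in all, 235 in siORCA 1, 115 in siORCA 2, 105 in control 1 and 168 in control 2. NS-seq, the sequencing of nascent strands, selects short new DNA that begins at replication origins, by size fractionation and by exonuclease digestion of DNA that lacks an RNA primer, so peaks are read as DNA around active origins. The cells were U2OS, a human osteosarcoma line, transfected with an siRNA against ORCA (2 samples, siORCA) or with the control siRNA labelled gl3 (2 samples, control). A genomic DNA sample of each transfection, 2 in all, was not analysed here. The comparison asks whether origin activity differs after the siRNA against ORCA. The level of ORCA itself cannot be read from DNA peaks. Whether replicates were separate cultures is not stated, and p-values therefore reflect only how far these samples spread, which may be technical.

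Replication-dependent histone genes encode the linker histone H1 and the core histones H2A, H2B, H3 and H4 that package newly replicated DNA. They are short, lack introns, and are transcribed mainly in S phase, when many copies are needed at once. ORCA, which LRWD1 encodes, is a partner of the origin recognition complex and stabilises its binding to chromatin. In human cells origins are often found near active promoters and in GC-rich DNA.

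RefSeq lists 55 protein-coding genes with replication-dependent histone symbols on chromosome 6 of GRCh38.p14, which are 6 H1, 12 H2A, 15 H2B, 10 H3 and 12 H4 genes, and 11 pseudogenes. Some of them, such as H1-6, are known as testis variants. No annotation or sequence of T2T-CHM13 was used here, so peaks could not be placed on these genes, and the positions below carry no gene annotation. To show the kind of promoter that the cluster holds, the 150 bases before the start of 3 genes are given 5′ to 3′ from RefSeq, build GRCh38.p14, with CCAAT and TATAAA on either strand in capitals. They were chosen after their sequences were seen, to show a promoter with both motifs, one with CCAAT alone and one with neither. H1-4 encodes a linker histone, H2AC8 an H2A that is transcribed away from its neighbour H2BC8, and H4C5 an H4. No peak is assigned to them.
H1-4: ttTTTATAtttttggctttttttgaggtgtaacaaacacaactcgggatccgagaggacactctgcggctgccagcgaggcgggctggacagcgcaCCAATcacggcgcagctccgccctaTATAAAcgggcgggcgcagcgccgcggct
H2AC8: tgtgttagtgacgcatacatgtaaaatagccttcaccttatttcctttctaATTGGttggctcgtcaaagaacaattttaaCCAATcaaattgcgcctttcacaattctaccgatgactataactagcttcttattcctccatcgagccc
H4C5: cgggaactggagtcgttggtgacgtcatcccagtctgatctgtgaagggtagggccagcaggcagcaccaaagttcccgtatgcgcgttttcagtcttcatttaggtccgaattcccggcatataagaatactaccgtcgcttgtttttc

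Over the 250 bases before the start, 43 of the 50 histone genes with a listed promoter (86.0%) held CCAAT on either strand, against 33.0% of 27305 promoters of all genes. TATAAA was present in 33 of them (66.0%), against 11.1% of all promoters. A G-quadruplex pattern was present in 3 of them (6%), against 22.6% of all promoters. The pattern was defined as 4 runs of at least 3 G with 1 to 7 bases between runs, on either strand. The median GC content was 41.2% in the histone promoters and 58.0% in all promoters. The starts of H2AC8 and H2BC8 lie 233 bases apart, so most of the 250-base windows of this pair are the same DNA. Overlap between other promoters was not measured, so the counts over 50 promoters may include the same DNA more than once. These are matches of letters and say nothing of where an origin fires.

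The histone cluster carried a moderate density of peaks. It was denser than the stretch of chromosome 6 from 20 to 25 Mb, which serves as its reference, and sparser in covered length than the average of the genome. Peaks numbered 9.04 per 100 kb in siORCA 1, 4.42 in siORCA 2, 4.04 in control 1 and 6.46 in control 2. In the reference stretch they numbered 6.18, 1.64, 2.86 and 4.08 per 100 kb in the same order of samples. The cluster was thus higher in 4 of 4 samples, by 1.41-fold to 2.70-fold. The exact two-sided sign-flip permutation test over samples gave p = 0.125, the smallest that 4 samples allow, and 0.139 after Benjamini-Hochberg adjustment over 10 such comparisons of the cluster with other stretches. The direction was therefore the same in every sample without reaching the threshold.

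Covered length, the sum of peak lengths, was 1727 bp per 100 kb of the cluster in siORCA 1, 1096 bp in siORCA 2, 962 bp in control 1 and 1533 bp in control 2. The reference stretch had 1212, 357, 672 and 989 bp per 100 kb in the same order. The ratio of cluster to reference was 1.42 in siORCA 1, 3.07 in siORCA 2, 1.43 in control 1 and 1.55 in control 2. The 3.07 of siORCA 2 stood apart from the other values. That list was sparse in the reference stretch, where it covered 0.262 of its own density over the rest of chromosome 6, while the other lists covered 0.470 to 0.602 of theirs. Set against the rest of chromosome 6, the covered length of the cluster was 0.805 in siORCA 1, 0.804 in siORCA 2, 0.674 in control 1 and 0.933 in control 2 of the chromosome's density, below it in 4 of 4 samples (exact sign-flip permutation p = 0.125). Against all autosomes and X it was 0.613, 0.523, 0.503 and 0.699, again below in 4 of 4 samples (exact sign-flip permutation p = 0.125). The number of peaks per 100 kb lay above the rest of chromosome 6 in 2 samples and below it in the other 2 (exact sign-flip permutation p = 0.875). Against all autosomes and X it was lower in 4 of 4 samples, at 0.681 to 0.838 of their density (exact sign-flip permutation p = 0.125).

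**Figure D1:**
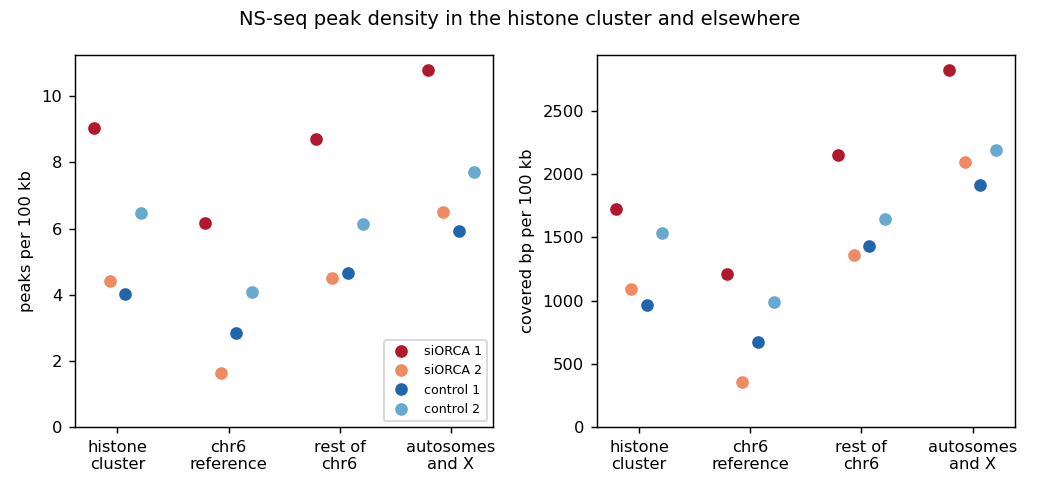
Peaks per 100 kb (left) and covered bp per 100 kb (right) in the histone cluster, the reference stretch of chromosome 6, the rest of chromosome 6, and the autosomes with X, with 1 point per sample. Every sample has a higher density in the cluster than in the reference stretch, and siORCA 2 has the lowest reference value, 357 bp per 100 kb.

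By rank among stretches of its own length, the cluster lay near the middle of the genome. Among 1163 tiles of 2.6 Mb along the autosomes and X, the covered length of the cluster exceeded 49.8% of tiles in siORCA 1, 51.2% in siORCA 2, 46.2% in control 1 and 52.6% in control 2. The reference stretch, scaled to the same length, stood at 35.1%, 23.0%, 31.1% and 31.8% in the same order. The cluster's place in the genome therefore differed by a few percentage points between samples, while its absolute covered length differed up to 1727 against 962 bp per 100 kb.

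By median width, peaks of the cluster were narrower than those of the autosomes and X, but wider than those of the reference stretch. The median width was 148 bp in siORCA 1, 168 bp in siORCA 2, 169 bp in control 1 and 170 bp in control 2. The medians over the autosomes and X were 167, 212, 216 and 189 bp in the same order, so the cluster had the smaller median in 4 of 4 samples (exact sign-flip permutation p = 0.125). In the reference stretch the medians were 143, 157.5, 164 and 163.5 bp, below those of the cluster in 4 of 4 samples. Narrow peaks were thus not particular to the cluster. Widths ran up to 1044 bp in siORCA 1, 940 bp in siORCA 2, 1170 bp in control 1 and 1202 bp in control 2. Peaks wider than 500 bp numbered 7 in siORCA 1, 14 in siORCA 2, 9 in control 1 and 14 in control 2. The longest list, siORCA 1, had the fewest wide peaks in the cluster. Over the autosomes and X its share of wide peaks was also the smallest, at 38442 of 329933 peaks. The others had 35146 of 198486 in siORCA 2, 31842 of 181132 in control 1 and 32203 of 235444 in control 2.

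The authors' fold enrichment over background, which is the peak's own value within its list, had a median of 4.29 in siORCA 1, 4.30 in siORCA 2, 3.65 in control 1 and 3.79 in control 2 among the cluster's peaks. The medians over autosomes and X were 4.51, 4.21, 3.82 and 3.94, so the same order of groups was present in the whole lists. Of the cluster's peaks, 58.3% reached a −log10 q of 3 or more in siORCA 1 (95% Wilson interval 51.9% to 64.4%) and 57.4% in siORCA 2 (48.3% to 66.0%). In control 1 the share was 24.8% (17.5% to 33.8%), and in control 2 it was 32.1% (25.5% to 39.5%). The intervals cover counting error only. Over the autosomes and X the shares were 64.6% in siORCA 1 and 56.8% in siORCA 2, against 35.9% in control 1 and 41.6% in control 2. The gap between the groups in the cluster was therefore present genome-wide in the same direction, and it was not tested against the unknown sequencing depth of the lists.

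Along the cluster, covered length averaged over the samples was highest at 2 places. The 100 kb window from 27.1 Mb had 3090 bp covered in siORCA 1, 3900 bp in siORCA 2, 3676 bp in control 1 and 2864 bp in control 2. The window from 26.2 Mb had 5207, 2942, 2952 and 2181 bp in the same order, and its neighbour from 26.3 Mb had 3204, 3293, 1349 and 3876 bp. These 3 windows were the densest by the mean of the 4 samples, and were chosen for it. By that mean they stood above 80.2%, 79.8% and 77.2% of the genome's windows, in the order given. In control 1 the window from 28 Mb, with 2353 bp, was above that from 26.3 Mb. The 3 windows held 25.6% of the covered length of the cluster in siORCA 1, 35.6% in siORCA 2, 31.9% in control 1 and 22.4% in control 2. In covered bp, without regard to list length, the window from 27.1 Mb was the most even of these across samples. The window from 26.2 Mb was highest in siORCA 1, the longest list, and the one from 26.3 Mb lowest in control 1.

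The sparsest windows lay at the start of the span and in its middle. The first window of the span had 663 bp in siORCA 1, 0 bp in siORCA 2, 605 bp in control 1 and 129 bp in control 2. The window from 26.8 Mb had 334, 167, 276 and 1176 bp, and the one from 26 Mb had 394, 0, 121 and 1646 bp in the same order. In both of these control 2 stood above the other 3 samples. Windows without any peak numbered 0 in siORCA 1, 3 in siORCA 2, 1 in control 1 and 0 in control 2 of 26.

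Over the 26 windows the number of peaks ran between 3 and 21 in siORCA 1, 0 and 10 in siORCA 2, 0 and 11 in control 1, and 1 and 11 in control 2. The median width per window ran between 92 and 295 bp in siORCA 1, 106.5 and 403 bp in siORCA 2, 115.5 and 373 bp in control 1, and 120.5 and 568.5 bp in control 2. By the mean of the 4 samples, the median window of the cluster had 1059 bp covered, against 705.5 bp in the 50 windows of the reference stretch and 1082 bp over 30537 windows of the genome. Windows above 2000 bp numbered 4 of 26 in the cluster (15.4%), 2 of 50 in the reference stretch (4%) and 31.9% of all windows. The median window of the cluster was thus near that of the genome, while windows above 2000 bp made up a smaller share.

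**Figure D2:**
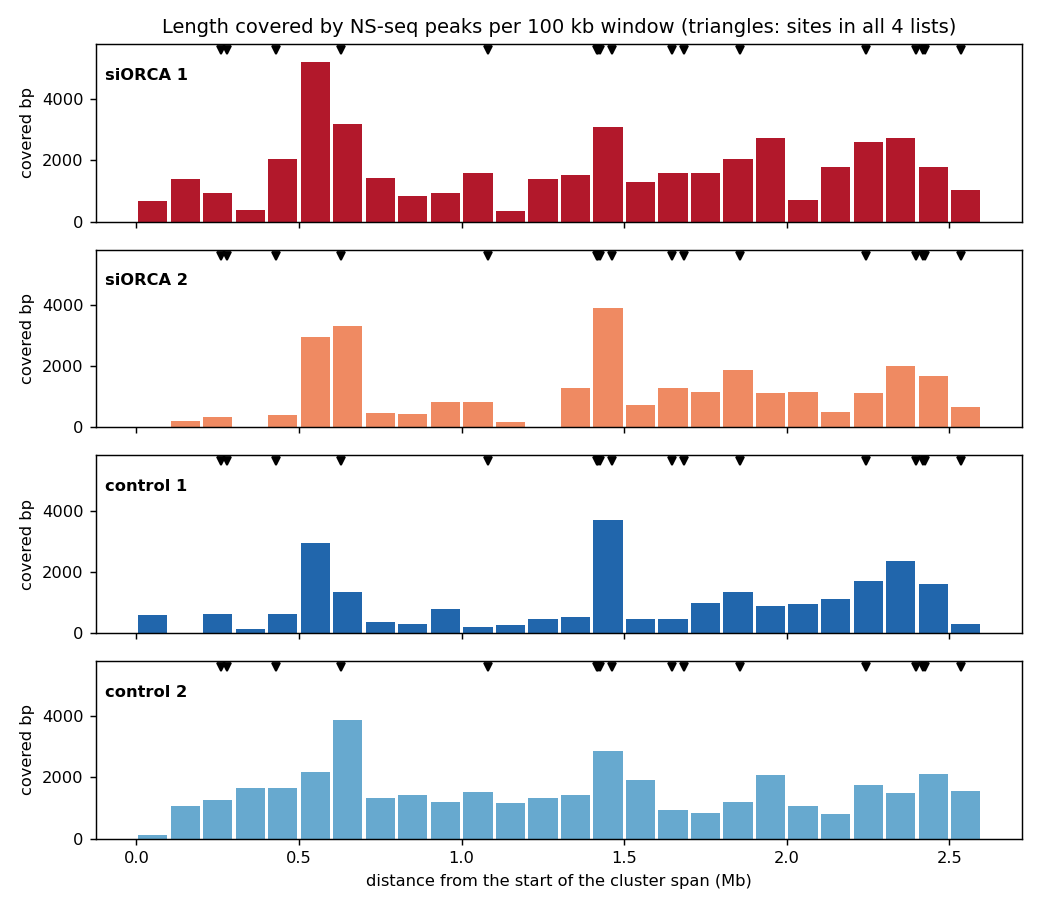
Length covered by peaks in each 100 kb window, along the distance from the start of the cluster span, with 1 panel per sample and a triangle at each site found in all 4 lists. The densest windows start 0.5, 0.6 and 1.4 Mb into the span, and the window at 1.4 Mb is high in every sample, between 2864 and 3900 bp.

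The profiles of the samples resembled each other in part. Over the 26 windows, the Spearman correlation of covered length was 0.721 between the siORCA samples and 0.314 between the control samples. Across groups it was 0.688 for siORCA 1 with control 1, 0.533 for siORCA 1 with control 2, 0.727 for siORCA 2 with control 1 and 0.421 for siORCA 2 with control 2. These describe 26 neighbouring windows that share mappability and base composition. The same measure over all windows of the autosomes and X ran between 0.824 and 0.875. In the cluster, the 3 pairs with control 2 were the lowest.

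At the scale of 10 kb, most of the cluster held a peak in at least 1 list. Of its 260 bins of 10 kb, 51 (19.6%) held no peak start in any list and 33 (12.7%) held one in all 4 lists. In the reference stretch 32.4% of bins were empty in all lists and 4.80% were occupied in all 4. Over the autosomes and X the shares were 31.0% and 20.05%. Compared with the genome, the cluster thus had a smaller share of empty bins and also a smaller share of bins occupied in all lists. Its longest stretch without a peak in any list measured 41294 bp, from 26656264 to 26697557 on chromosome 6 of T2T-CHM13, the build of all positions below.

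To count recurring sites, the 4 lists were merged wherever peaks touched or overlapped. This gave 425 regions in the cluster, of which 298 (70.1%) were found in 1 list, 76 (17.9%) in 2, 34 (8%) in 3 and 17 (4%, 95% Wilson interval 2.51% to 6.31%) in all 4. The reference stretch had 78.4% in 1 list and 14 of 561 regions (2.50%) in all 4. Over the genome 60.1% of 535576 regions were in 1 list and 10.7% in all 4. Constant sites, those in all 4 lists, occurred at 6.54 per Mb in the cluster, 2.80 per Mb in the reference stretch and 18.3 per Mb over the genome. With the peaks restricted to a −log10 q of 3 or more there were 9 constant sites in the cluster, and 6 when each list had to cover at least 0.5 of the merged region. Over the genome these settings left 24764 and 14820 of 57130 constant sites. Without control 1 or control 2 there were 31 and 34 sites of the cluster in all of the remaining 3 lists, against 18 and 19 without siORCA 1 or siORCA 2. Over the genome these counts were 77816 and 80264, against 64862 and 64195, so they differed in the same direction.

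**Figure D3:**
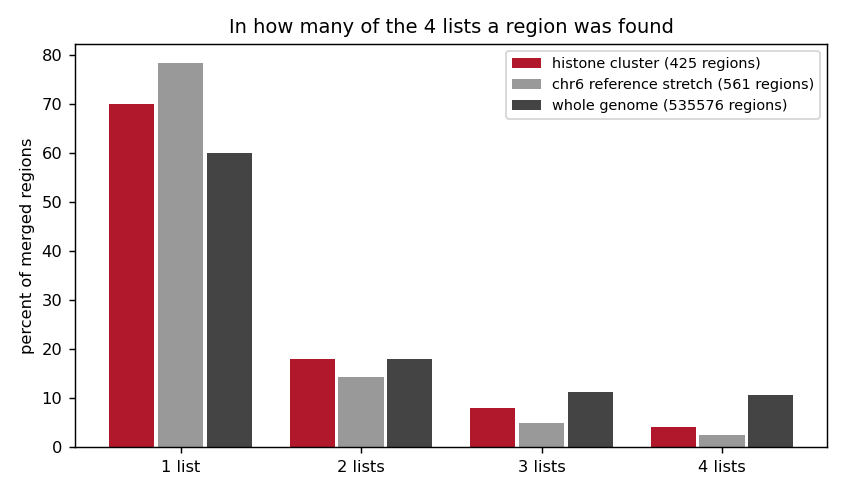
Percent of merged regions found in 1, 2, 3 or 4 of the lists, for the histone cluster, the reference stretch of chromosome 6 and the whole genome. Regions in all 4 lists make up 4% in the cluster, 2.50% in the reference stretch and 10.7% over the genome.

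The share of peaks that recurred in another list was smaller in the cluster than over the genome and larger than in the reference stretch, in each sample. In siORCA 1, 45.1% of cluster peaks lay in a region found in another list (95% Wilson interval 38.9% to 51.5%), against 56.2% of all its peaks. In siORCA 2 it was 76.5% (68.0% to 83.3%) against 82.1%. In control 1 it was 55.2% (45.7% to 64.4%) against 73.8%, and in control 2 it was 43.5% (36.2% to 51.0%) against 59.9%. The cluster was lower in 4 of 4 samples (exact sign-flip permutation p = 0.125, the smallest that 4 samples allow), and in siORCA 2 the genome's share was within the interval. In the reference stretch the shares were 33.3%, 74.4%, 42.7% and 35.8% in the same order of samples, below the cluster in 4 of 4 (exact sign-flip permutation p = 0.125). Constant sites held 10.3% of the covered length of the cluster in siORCA 1, 17.7% in siORCA 2, 21.1% in control 1 and 12.7% in control 2. Over the genome constant sites held 33.0%, 46.3%, 46.5% and 37.2% in the same order, higher than in the cluster in 4 of 4 samples (exact sign-flip permutation p = 0.125).

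The 17 constant sites of the cluster fell in 11 of the 26 windows. They were between 172 and 1237 bp wide with a median of 383 bp, where the median of the genome's constant sites was 669 bp. The stretch covered by all 4 lists at once was between 19 and 415 bp long with a median of 121 bp. Neighbouring sites were between 2460 and 452202 bp apart with a median of 131042 bp. The strongest were ranked by where their fold enrichment stood within each list, and those values describe the sites and were used to choose them.

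The site with the highest mean rank was site 7 in order along the chromosome, from 27119664 to 27120428. Its fold enrichment was 11.9 in siORCA 1, 13.7 in siORCA 2, 10.2 in control 1 and 8.91 in control 2. It had 729 bp covered in siORCA 1 and 761 bp in siORCA 2, against 423 bp in control 1 and 596 bp in control 2, and 377 bp were shared by all lists. It was the strongest peak of the cluster in siORCA 2, and it stood above 94.1% of the list or more in every sample.

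Site 6, from 27115967 to 27117203, was the widest, at 1237 bp. It had 290 bp covered in siORCA 1 and 668 bp in siORCA 2, against 1170 bp in control 1 and 578 bp in control 2. Its highest fold enrichment was 9.04, 9.69, 9.71 and 17.2 in the same order, the last being the strongest peak of the cluster in control 2. The groups overlapped in covered length, with siORCA 1 the lowest and control 1 the highest.

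Sites 6 and 7 belong to a group of 3 constant sites with site 8, from 27124527 to 27125134, which had 450 bp covered in siORCA 1 and 526 bp in siORCA 2, against 590 bp in control 1 and 483 bp in control 2. The stretch of 9168 bp that holds these sites had 1668 bp covered in siORCA 1, 2837 bp in siORCA 2, 2815 bp in control 1 and 1657 bp in control 2. It made up 54.0%, 72.7%, 76.6% and 57.9% of the covered length of the window from 27.1 Mb in the same order. This stretch accounts for more of that window than all other peaks in it, in each sample. Its part of the covered length of the whole cluster was 3.72% in siORCA 1 and 9.96% in siORCA 2, against 11.3% in control 1 and 4.16% in control 2.

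Site 14, from 28096970 to 28097665, was 696 bp wide and the third in rank. It had 199 bp covered in siORCA 1 and 680 bp in siORCA 2, against 668 bp in control 1 and 358 bp in control 2, with folds of 11.0, 9.94, 5.38 and 7.28 in the same order. Within each group one sample covered far more of the site than the other. Site 4, from 26327797 to 26328088, had 292 bp covered in siORCA 1 and 271 bp in siORCA 2, against 178 bp in control 1 and 203 bp in control 2. Its folds lay between 4.93 and 6.22, and both siORCA samples lay above both controls in covered length.

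Site 10, from 27346829 to 27347102, had 136 bp covered in siORCA 1 and 244 bp in siORCA 2, against 203 bp in control 1 and 152 bp in control 2, so the groups overlapped. The folds of its siORCA peaks were 4.73 and 5.30, and those of its control peaks 7.99 and 6.52. Site 16, from 28124305 to 28124600, had 177 bp covered in siORCA 1 and 175 bp in siORCA 2, against 192 bp in control 1 and 261 bp in control 2, with folds of 3.99 and 6.75 in siORCA, against 10.1 and 8.05 in control. Folds come from lists called separately, so they are set side by side without a comparison.

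The other 11 sites were between 172 and 608 bp wide. Over all 17, the median covered length was 208 bp in siORCA 1, 216 bp in siORCA 2, 192 bp in control 1 and 249 bp in control 2, against 369, 386, 347 and 313 bp over the constant sites of the genome. Sites of the cluster that stood above the middle of their list in fold enrichment numbered 12 in siORCA 1, 16 in siORCA 2, 14 in control 1 and 15 in control 2. Their median percentile within the list was 66.8, 86.2, 86.1 and 83.2 in the same order. Over the constant sites of the genome it was 79.2, 76.9, 74.3 and 75.5. A place above the middle was thus common among constant sites, and in siORCA 1 the cluster's median was the lower. A site may be constant and weak at once. Site 1, from 25960952 to 25961269, stood above only 2.57% of the siORCA 1 list and above 82.8% of the siORCA 2 list. It is named after its values were seen.

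**Figure D4:**
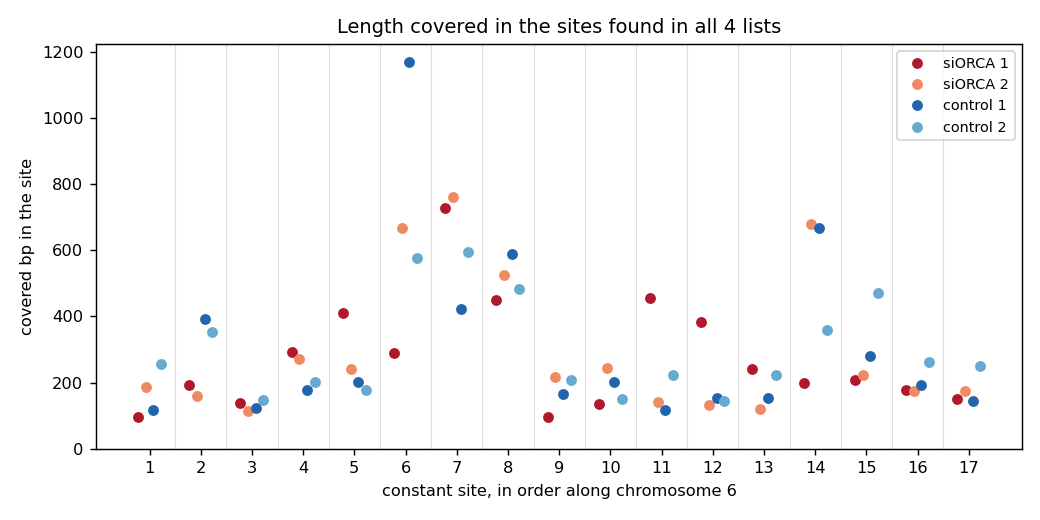
Length covered in each of the 17 sites of the cluster found in all 4 lists, in order along chromosome 6, with 1 point per sample. Sites 6, 7 and 14 are the widest, and at site 6 the samples spread between 290 and 1170 bp.

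Between siORCA and control, the cluster as a whole showed no difference beyond the spread between replicates. Covered length was 1411 ± 446 bp per 100 kb in siORCA and 1248 ± 404 bp in control (SD, n = 2 each; p = 0.667 in a two-sided exact permutation test). Peaks per 100 kb were 6.73 ± 3.26 in siORCA and 5.25 ± 1.71 in control (SD, n = 2 each; exact permutation p = 0.667). The share of a list's covered length that lay in the cluster was 0.0483 ± 0.00537% in siORCA and 0.0511 ± 0.0118% in control (SD, n = 2 each; exact permutation p = 1.00). The ratio of cluster to reference was 2.25 ± 1.16 in siORCA and 1.49 ± 0.0833 in control (SD, n = 2 each; exact permutation p = 1.00). The groups overlapped in all 4 of these values. With 2 samples a group no p below 0.333 can be reached, and all p-values were 1.00 after Benjamini-Hochberg adjustment over the 5 values compared.

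The median width did separate the groups, at 148 and 168 bp in siORCA against 169 and 170 bp in control (158 ± 14.1 against 169.5 ± 0.707 bp, SD, n = 2 each; p = 0.333 by the exact permutation test, its lower limit here). The gap between siORCA 2 and control 1 was that of 168 against 169 bp, and without siORCA 1 the difference in medians was −1.5 bp. With lists of equal covered length the separation was lost, at 169 and 167.5 bp in siORCA against 169 and 196 bp in control (exact permutation p = 0.667). With a −log10 q of 3 or more the separation was kept. Medians were then 166 and 165 bp in siORCA against 189 and 209.5 bp in control (exact permutation p = 0.333). Without siORCA 2 the difference in the ratio of cluster to reference turned to −0.0669, so this library alone gave it its direction. Without siORCA 1 the difference in covered length turned to −152 bp per 100 kb and that in peaks to −0.827 per 100 kb. Without control 1 covered length turned to −122 bp, and with the lists shortened to equal covered length it turned to −115 bp. With the peaks restricted to a −log10 q of 3 or more, covered length was 1124 and 678 bp per 100 kb in siORCA, against 297 and 569 bp in control. The groups then did not overlap, but the share of the list's covered length still did, at 0.0459% and 0.0429% in siORCA against 0.0309% and 0.0441% in control.

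Window by window, no part of the cluster was called. In the fit over 22446 windows of 100 kb, 0 were called higher and 0 lower in siORCA (0% each; limma, adjusted p threshold 0.05), with 1181 at an unadjusted p under 0.05. Of the 26 windows of the cluster, 24 passed the filter on low coverage, and 0 of them had an unadjusted p under 0.05 in limma. The smallest adjusted p among them was 0.939 (limma), for the window from 26 Mb, where siORCA was lower by a log2 share of −1.03 with an SE of 0.62. On the log2 scale siORCA differed from control by −0.16 (SE 0.37) in the window from 27.1 Mb, by 0.30 (SE 0.37) in that from 26.2 Mb and by 0.15 (SE 0.39) in that from 26.3 Mb (adjusted p between 0.977 and 0.998, limma). The first window and the one from 26.8 Mb fell under the filter and were not tested. The median log2 difference was −0.16 over the 24 windows of the cluster, −0.34 over 37 windows of the reference stretch and −0.09 over all tested windows. Differences are on the scale of log2 of covered bp plus 500, over the list's total. The totals differ between lists, so this scale draws sparse windows toward the difference in log2 totals. That difference lies below 0 for siORCA minus control, so these medians are not free of the scale. Differences above 0 numbered 10 of 24 in the cluster and 9 of 37 in the reference stretch. With 2500 bp added they numbered 2 and 3.

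On the scale of the fit, with 500 bp added to each window, both siORCA samples had a larger share than both controls in 1 of the 24 windows, where the background over all windows was 12.1%. Both had a smaller share in 4 of 24, where the background was 21.5%. The higher one started at 27.3 Mb, with 1592 bp covered in siORCA 1 and 1296 bp in siORCA 2, against 449 bp in control 1 and 931 bp in control 2. The lower ones started at 25.9, 26, 26.6 and 28.1 Mb. In the window from 26 Mb, 394 bp were covered in siORCA 1 and 0 bp in siORCA 2, against 121 bp in control 1 and 1646 bp in control 2, so the lengths themselves overlapped between the groups and the separation rests on the added 500 bp and the list totals. Neither count is above its background.

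**Figure D5:**
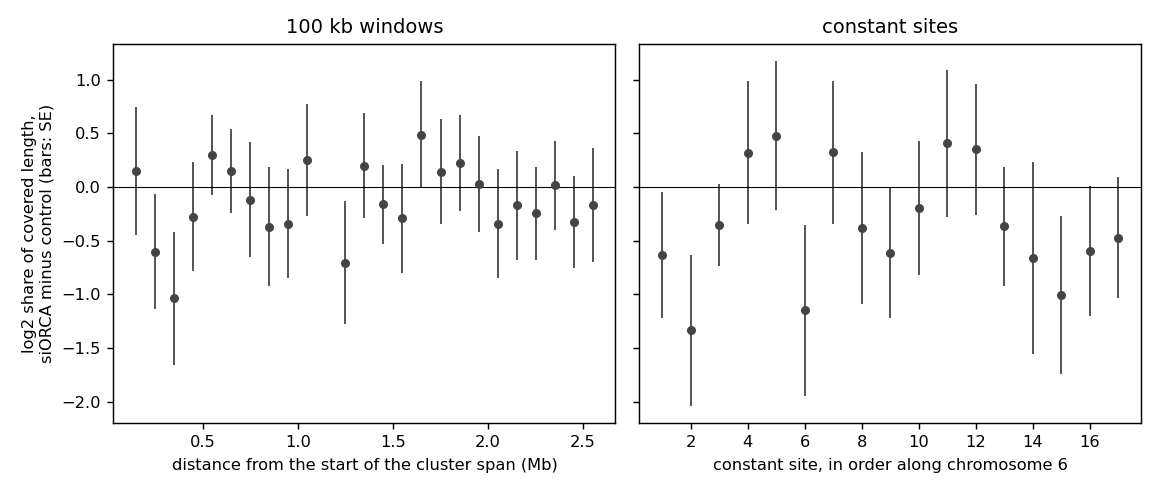
Difference in the log2 share of covered length, siORCA minus control, with its SE, for the 24 tested windows along the distance from the start of the span (left) and the 17 constant sites in order (right). No point is past the threshold, and the lowest window, at −1.03, starts 0.3 Mb into the span.

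The constant sites gave the same picture. Over 57130 constant sites of the genome, 0 were called wider and 0 narrower in siORCA (0% each; limma on the log2 share of covered length, adjusted p threshold 0.05), with 2352 at an unadjusted p under 0.05. Of the 17 in the cluster, 0 had an unadjusted p under 0.05, and the adjusted p was 1.00 for each (limma). The log2 difference was −1.15 with an SE of 0.79 at site 6, 0.32 with an SE of 0.67 at site 7 and −0.66 with an SE of 0.89 at site 14. It was 0.32 with an SE of 0.67 at site 4, −0.19 with an SE of 0.62 at site 10 and −0.59 with an SE of 0.60 at site 16. The difference was above 0 at 5 of 17 sites, with a median of −0.38, against −0.09 over all constant sites. Both siORCA samples had a larger share than both controls at sites 4 and 5 (2 of 17 or 11.8%, background 12.5%), and a smaller share at 4 sites, numbers 2, 3, 15 and 16 (4 of 17 or 23.5%, background 17.2%).

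Regions found in both samples of 1 group and in neither of the other were few. In the cluster 24 of 425 regions (5.65%) were found in both siORCA samples and no control sample, where the background over the genome was 5.44%. Regions in both control samples and no siORCA sample numbered 7 (1.65%), where the background was 1.67%. Both shares were close to those of the genome, as was their ratio, 3.43 in the cluster and 3.25 over the genome. With the lists shortened to equal covered length, regions in siORCA alone numbered 15 (4.70%, against 4.32% over the genome) and those in control alone 7 (2.19%, against 2.67%). With the peaks restricted to a −log10 q of 3 or more they numbered 22 (11.6%, against 9.16%) and 1 (0.526%, against 0.684%), so the genome held the same skew. Leaving out 1 library relaxes the criterion for its group. Without siORCA 1 there were 53 regions in siORCA alone and 9 in control alone, a ratio of 5.89 against 4.02 over the genome. Without siORCA 2 there were 157 and 8, a ratio of 19.6 against 10.3. The ratio turned below 1 without control 1, with 41 and 102 regions (0.402, against 0.505 over the genome), and without control 2, with 38 and 54 (0.704, against 0.877). The siORCA regions were spread over 12 of the 26 windows, with at most 3 in any one.

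The widest region found in siORCA alone ran from 26375126 to 26375887, with 117 bp of it covered in siORCA 1 and 762 bp in siORCA 2. A second, from 28079685 to 28080395, was covered over 670 and 659 bp, near equal in both samples, at a fold enrichment of 3.35 and 3.33. The third, from 26718492 to 26718907, had 416 and 157 bp covered at 25.6-fold and 9.42-fold, and was the second strongest peak of the cluster in siORCA 1. Over all of them, the median width was 193 bp for the 24 regions found in siORCA alone and 213 bp for the 7 found in control alone. The widest of the control regions ran from 27125556 to 27125834, beside site 8, where the peak of control 1 was 193 bp long and that of control 2 was 220 bp. The others ran from 26144840 to 26145082 (211 and 109 bp) and from 26325683 to 26325923 (106 and 177 bp). Their folds lay between 3.46 and 4.39.

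Of the 34 regions found in exactly 3 lists, 17 lacked control 2, 14 lacked control 1, 2 lacked siORCA 2 and 1 lacked siORCA 1. A control list was thus the missing one in 31 of 34 (91.2%), against 17 of 27 (63.0%) in the reference stretch and 73.9% over the genome. This is a description of 4 lists whose lengths differ, and siORCA 1 is the longest of them, at 330265 peaks. The siORCA 2 list had 198518 peaks, control 1 had 181215 and control 2 had 235865. The siORCA 2 list was thus shorter than that of control 2 and was missing less often. The cause was not tested.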

How the data were processed

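Nascent-strand DNA was sequenced in 4 samples. Reads were handled with BWA, SAMtools and MACS2 on T2T-CHM13, per the submitters' processing notes; the sources used here do not give versions, settings or whether genomic DNA served as background. The authors deposited 1 broad peak list per sample, each peak with a score, a fold enrichment (a ratio), and −log10 p and −log10 q values. Read depth is unknown. Peaks were placed by their start. Lists were merged wherever peaks touched or overlapped by at least 1 bp (Python 3.11.15, pandas 2.3.3, scipy 1.17.1). Covered length was tested with limma 3.58.1 in R 4.3.3 on log2 of its share of the list (500 bp added per window, none per site), over windows with a mean of at least 500 bp, after the code was tested on simulated data.

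Alternatives were a −log10 q of at least 3, lists at equal covered length, other merging, pseudocount, filter, scaling and window sizes, a replicate block, and each sample left out. Members and lists were chosen with earlier results of these data known. Windows named are the 3 most and 3 least covered, and sites the 6 with the highest mean within-list percentile of fold enrichment, the 3 widest, and the 3 widest found in 1 group alone. The planned counts of histone genes with a peak, the span between the outermost histone genes and the sequence of constant sites were not run, since no T2T-CHM13 genome or annotation was used here. RefSeq tables of GRCh38.p14 served for gene names and promoter sequences. Whether equal replicate numbers pair samples is not stated. Deviations from group means of same-numbered samples correlated at −0.172 over 22446 windows and −0.0454 over 57130 constant sites. With 2 samples a group, and lists of unlike length, this check cannot exclude pairing.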

Additional observations from a re-analysis of the deposited data

How the results depend on the processing

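No window or constant site of the cluster was called under any alternative run. The difference between siORCA and control in covered length was 163 bp per 100 kb. It was 468 bp at a −log10 q of at least 3 and −115 bp with lists at equal covered length. With 1 sample left out it lay between −152 and 479 bp. In peaks per 100 kb the difference was 1.48, 2.37 at a −log10 q of at least 3 and −0.173 at equal covered length. With 1 sample left out it lay between −0.827 and 3.79. For the ratio of cluster to reference it lay between −0.0669 and 1.58 with 1 sample left out. For the share of covered length it was −0.0028%, 0.00688% at a −log10 q of at least 3, and between −0.0111% and 0.00553% with 1 sample left out. The difference in median width lay between −21.5 and −1.5 bp with 1 sample left out, and its groups overlapped at equal covered length. It was −33.75 bp at a −log10 q of at least 3, where the groups stayed apart. Constant sites numbered 17, 9 at the stricter q, 6 when each list covered at least 0.5 of the region, and between 18 and 34 with 1 sample left out. Over the genome they numbered 57130, 24764, 14820 and between 64195 and 80264 in the same order. Regions in siORCA alone numbered 24 (5.65%, against 5.44% over the genome), 15 at equal covered length (4.70%, against 4.32%), and between 38 and 157 with 1 sample left out (10.8% to 39.1%, against 10.7% to 35.0%). Regions in control alone numbered 7 (1.65%, against 1.67%), 1 at the stricter q (0.526%, against 0.684%), and between 8 and 102 with 1 sample left out (1.99% to 26.9%, against 3.40% to 21.3%). Fewer lists make both criteria easier to meet. Windows called over the genome numbered 0, 1 at the stricter q, 5 at equal covered length, 1 with the larger pseudocount, 1 without the filter, and between 1 and 13 with 1 sample left out. Constant sites called over the genome numbered 0, and 2 at the stricter q.

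With the replicate block, 0 windows and 0 constant sites were called, and no call changed. A crossed replicate block, chosen after seeing the data, called 5 windows over the genome and 0 in the cluster.

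Blocks, median centring and the lack of a filter move the 4 named windows by 1 constant each. Of the other 25 alternative values for these windows, 20 kept their direction. The window from 26.3 Mb turned to −0.031 with the larger pseudocount, and lay between −0.37 and 0.67 with 1 sample left out. The window from 27.1 Mb lay between −0.52 and 0.20 with 1 sample left out. The cause of these reversals was not tested. For the named sites, the stricter q moved all 6 by −0.58 on the log2 scale and equal covered length moved all 5 that remained by 0.25. Only the list totals changed there, so the turns of site 4 to −0.26, site 7 to −0.25 and site 10 to 0.052 say nothing of these sites. Of the 24 values with 1 sample left out, 21 kept their direction. Site 10 lay between −0.83 and 0.44 and site 14 between −1.76 and 0.44 with 1 sample left out. Read depth is unknown, and 2 samples a group limit every comparison.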

Other observations

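The strongest peak of the cluster, from 27471280 to 27471483, had a fold enrichment of 70.5 in siORCA 1. It was 4.85-fold in control 2, and siORCA 2 and control 1 had no peak there. The third strongest of siORCA 1, from 26640254 to 26640416, was 24.8-fold, against 7.75-fold in siORCA 2 and 3.36-fold in control 1, with none in control 2. The strongest peak of control 1, from 27048471 to 27048615, was 10.7-fold there, with 14.3-fold in siORCA 1, 5.09-fold in siORCA 2 and none in control 2. All 3 were chosen after their values were seen.

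Pairs of lists shared little covered length in the cluster. The Jaccard index, shared over total covered length, was 0.203 for the siORCA pair and 0.0872 for the control pair, and it lay between 0.103 and 0.186 for the 4 pairs across groups. In the reference stretch the siORCA pair was also the highest, at 0.117, and the control pair the lowest, at 0.0632. Of siORCA peaks, 73 of 235 in siORCA 1 and 72 of 115 in siORCA 2 overlapped a peak of the other siORCA list. Of control peaks, 27 of 105 in control 1 and 28 of 168 in control 2 overlapped a peak of the other control list. In the reference stretch, 51 of 309 peaks in siORCA 1 and 51 of 82 in siORCA 2 overlapped the other siORCA list. Among control peaks there, 32 of 143 in control 1 and 32 of 204 in control 2 overlapped the other control list.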
